A study of Mus musculus with 6 samples.

Results

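Ctsa, Ctsb, Ctsc, Ctsd, Ctse, Ctsh, Ctsl, Ctss, Lgmn and Ifi30 are 10 genes of the endosomal and lysosomal machinery that unfolds, cuts and trims proteins. They encode 8 cathepsins, the asparaginyl endopeptidase legumain and the thiol reductase GILT. Their probes were found by gene symbol in the platform annotation, updated through Entrez identifiers, which gave 21 of the 45281 probes and 10 of the 19057 named genes of the array. A probe was tested when its detection p-value, the share of negative control beads as bright as the probe, was below 0.05 on at least 3 arrays. This held for 19 of the 21 probes, in 9 of the 10 genes, and for 16857 probes of the whole array.

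Bone marrow of female C57BL/6 mice aged 7 weeks was sorted by FACS into CCR9+ plasmacytoid dendritic cells (pDCs) and CCR9- pDC-like cells, taken by the submitters as common dendritic progenitors and called precursors here. CCR9 is a chemokine receptor, and pDCs are the main producers of type I interferon. Each population was measured on 3 single-colour Illumina arrays from independent isolations, and the labels give no genetic change or treatment. The labels name no sorting gate beyond CCR9 and no number of mice per isolation. Between 15254 and 16905 probes per array were above background, with the fewest on CCR9+ pDC replicate 3, whose mean correlation with its own group was also the lowest (0.970, against 0.979 to 0.991 for the others). Of 9 tested pDC markers, all were above background on every array of both groups, while Ccr9 itself was above background on 0 arrays and could not be used to check the sort.

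Proteins taken up by a dendritic cell, and membrane proteins that reach its endosomes, are cut there by cathepsins of 3 catalytic classes. Cysteine cathepsins (B, C, H, L and S), aspartic cathepsins (D and E) and the serine carboxypeptidase cathepsin A work beside legumain, which cuts after asparagine. GILT opens disulfide bonds so that folded antigens become accessible to these enzymes. The same enzymes trim the invariant chain from major histocompatibility complex (MHC) class II molecules and cleave the endosomal Toll-like receptors (TLRs) that pDCs use to sense nucleic acids.

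Most of the measured protease probes were higher in CCR9+ pDCs, and GILT ran the other way. In a limma fit over all 16857 probes, 10 of the 19 member probes were higher in CCR9+ pDCs (52.6%) at an adjusted p below 0.05, where 13.7% of all probes were and 29.3% were called in either direction. One probe, of Ifi30, was lower (5.26% of the members), where 15.6% of all probes were. The other 8 did not pass. The CCR9+ pDC and precursor values did not overlap for 15 of the 19 probes (78.9%), and for 46.4% of all probes. The median difference of the member probes, CCR9+ pDC minus precursor, was 0.57 on the log2 scale, against -0.04 for all probes tested. The differences ran from -0.63 for Ifi30 to 3.88 for a Ctsa probe. All differences below have this direction, and all signals are normalized log2 values with their SD over 3 arrays of a group.

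Median scaling, in place of quantile normalization, moved the median difference of all probes from -0.04 to -0.19. The calls over the array then split into 30.7% higher and the rest lower in CCR9+ pDCs, against 46.7% higher in the quantile-normalized values. Under it 6 member probes were called higher, where 8.2% of all probes were, and 2 were called lower. No called member changed direction. Without CCR9+ pDC replicate 3, 12 member probes were called higher, where 14.6% of all probes were, and 1 was called lower.

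Monocyte and macrophage markers moved in the same direction as the called protease probes. All 14 tested monocyte and macrophage markers were higher in CCR9+ pDCs, where 16.2% of all genes were by their brightest tested probe. The list was chosen with earlier results of these data known, so this count is not an independent comparison with that share. In the background-corrected values the median of the markers was 3.60. It was 3.33 with the 3 genes not above background on any precursor array at their lower bounds. C1qb (6.15), above background on 2 precursor arrays, Mrc1 (5.71) and Vcam1 (5.57) differed most, all in log2 units. Over the alternatives these differences ran from 4.37 to 6.42, 4.35 to 5.82 and 5.02 to 5.71, so their order depended on the setting. The summed normalized signal of that list was 33896 to 43018 on CCR9+ pDC arrays and 3043 to 3665 on precursor arrays. Every tested macrophage marker was above background on all CCR9+ pDC arrays, and C1qa, Fcgr1 and Hmox1 were on no precursor array. Macrophages express many of the member genes strongly. The part of such cells in the differences of Ctsa, Ctsc, Ctse, Ctsh, Ctsl, Ctss and Lgmn was not tested. In bulk samples fewer cells of a type and less RNA per cell cannot be told apart.

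**Figure D1:**
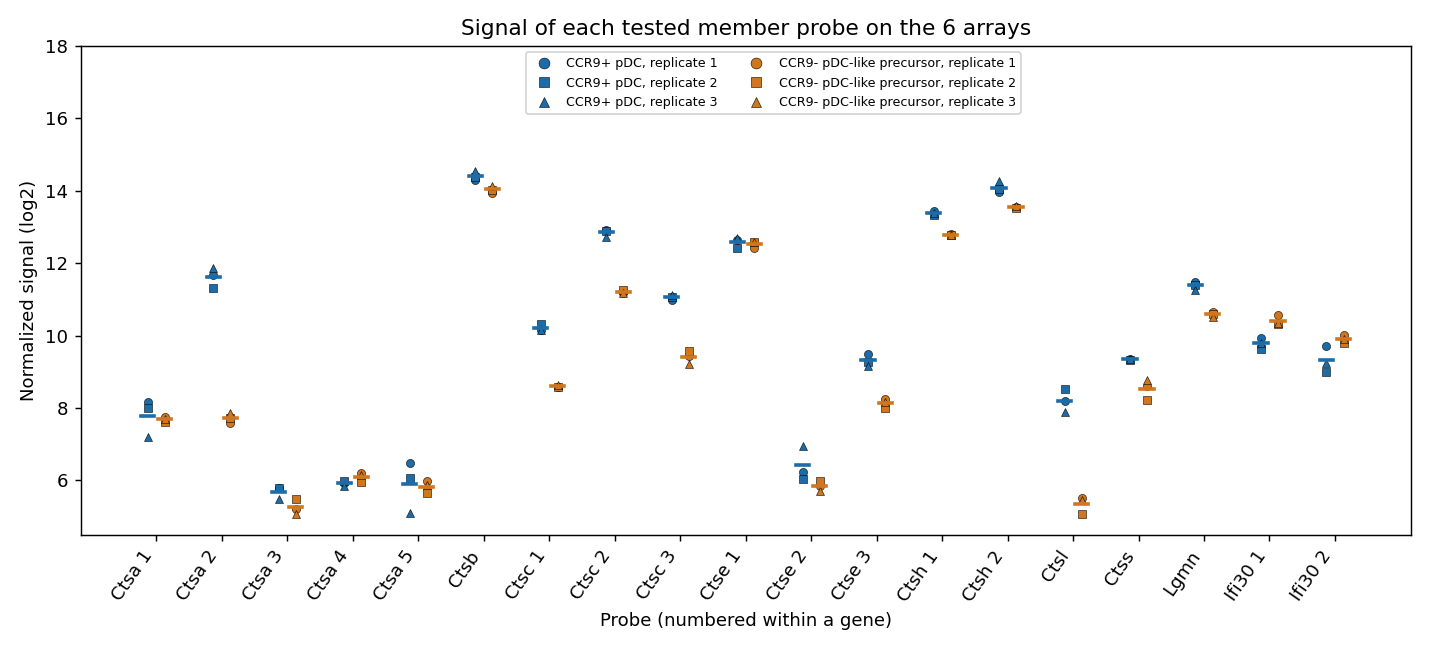
Normalized signal (log2, y axis) of the 19 tested member probes (x axis, numbered within a gene) on each array. Blue marks are the 3 CCR9+ pDC arrays, orange marks the 3 precursor arrays, and short lines the group means. The 3 Ctsc probes, Ctsl and the second Ctsa probe separate most widely, and the Ifi30 probes are higher in precursors. Heights are not comparable between probes.

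Ctsl was higher in CCR9+ pDCs, by a size that depended on the background correction. Its enzyme, cathepsin L, is an endopeptidase that degrades the invariant chain in thymic epithelium and cleaves many endosomal substrates. The single Ctsl probe read 8.19, 8.53 and 7.89 on CCR9+ pDC arrays 1 to 3. On the precursor arrays it read 5.52, 5.07 and 5.47, and it was above background on 1 of these 3. The lowest signals of detected probes were 5.45 to 5.50 on these arrays, so the precursor values lay near or below that floor. The groups did not overlap, at 8.20 ± 0.32 and 5.35 ± 0.25 (log2, SD, n = 3), a difference of 2.85 (SE 0.20, 95% interval 2.37 to 3.34, limma adjusted p = 0.000134). With no background correction it was 1.37 and with the authors' processed values 1.38, both called. The interval does not cover this choice. Ctsl had a larger difference than the Ctsc probes in the background-corrected values, and a smaller one than Ctsc probes 2 and 3 under those alternatives (1.59 and 1.48 with no background correction, 1.73 and 1.56 with the processed values).

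Ctsc encodes cathepsin C (dipeptidyl peptidase I), which removes dipeptides from the ends of proteins and activates the serine proteases of granules. Its 3 probes gave nearly one answer. Probe 2, the brightest, read 12.91, 12.90 and 12.73 in CCR9+ pDCs and 11.17, 11.26 and 11.18 in precursors. The lowest CCR9+ pDC array was thus well above the highest precursor array, a 3.12-fold difference (log2 1.64, SE 0.10, limma adjusted p = 7.63e-05). Probes 1 and 3 differed by 1.61 (SE 0.10) and 1.65 (SE 0.12), with adjusted p of 7.14e-05 and 0.000165. In a limma fit over the 4721 same-gene probe pairs of the array, the group difference of probe 2 minus that of probe 3 was -0.00 (95% interval -0.36 to 0.35). Against probe 1 it was 0.04 (95% interval -0.26 to 0.33). Neither pair passed the test, although with the authors' processed values the pair of probes 2 and 1 differed by 0.36 and passed (adjusted p = 0.0345).

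Ctss encodes cathepsin S, the main protease of the last steps of invariant chain cleavage in dendritic cells and B cells. Its probe read 9.34, 9.33 and 9.36 on the CCR9+ pDC arrays. Precursor arrays read 8.60, 8.22 and 8.79, lower on every array but more spread. The difference was 0.81 (SE 0.16, 95% interval 0.43 to 1.19, limma adjusted p = 0.00959), a 1.75-fold difference. Under median scaling it was 0.56 and no longer passed (adjusted p = 0.0829).

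Cathepsin H, an aminopeptidase, was measured by a pair of probes. Ctsh probe 1 read 13.44, 13.32 and 13.38 in CCR9+ pDCs against 12.81, 12.79 and 12.78 in precursors. Probe 2 read 13.95, 14.04 and 14.26 against 13.54, 13.52 and 13.57. No values overlapped between groups, and the differences were 0.59 (SE 0.09, limma adjusted p = 0.00386) and 0.54 (SE 0.11, adjusted p = 0.0134). Their difference from each other was -0.05 (95% interval -0.38 to 0.28) and did not pass. Both calls ended under median scaling (adjusted p = 0.0833 and 0.0699). Probe 2 also no longer passed without precursor replicate 1 or 2 (adjusted p = 0.0529 and 0.0560).

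Ctsb encodes cathepsin B, an endopeptidase that also trims dipeptides from the carboxyl end of proteins. One of its probes was not above background on any array (lowest detection p-value 0.127). The other read 14.28, 14.37 and 14.54 in CCR9+ pDCs and 13.95, 14.03 and 14.14 in precursors. The groups did not overlap, but the difference of 0.36 (SE 0.11, 95% interval 0.09 to 0.63) did not pass the test (limma adjusted p = 0.0570). It lay close to the threshold: the adjusted p was below 0.05 under 6 alternatives, such as 0.0295 with cyclic loess and 0.0408 with 1 probe per gene.

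**Figure D2:**
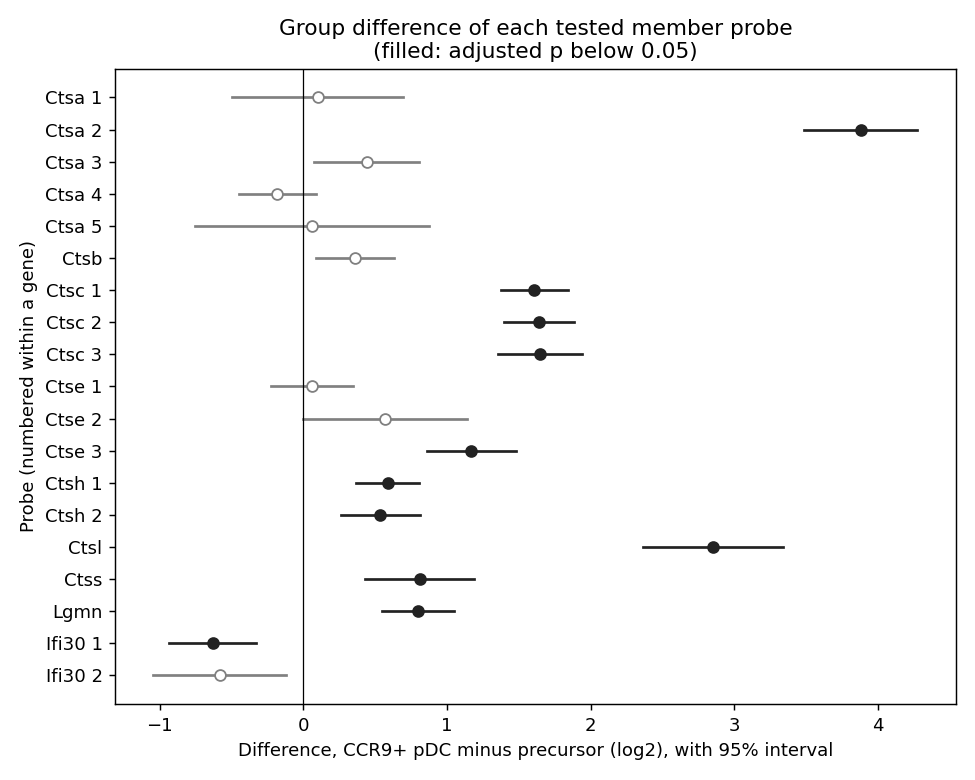
Difference between groups (x axis, CCR9+ pDC minus precursor, log2) of each tested member probe (y axis), with its 95% interval from limma. Filled points passed at an adjusted p below 0.05. The second Ctsa probe, at 3.88, stands apart from the other 4 Ctsa probes, between -0.18 and 0.44, while the 3 Ctsc probes lie between 1.61 and 1.65.

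Of the aspartic cathepsins, only Ctse was measured. The single Ctsd probe was not above background on any array (lowest detection p-value 0.0534), so cathepsin D, a major aspartic protease of lysosomes, could not be compared. Cathepsin E is a related aspartic protease of the endosomes of antigen-presenting cells. Its 3 probes did not give the same difference. Probe 1, which carries no transcript in the platform annotation, read 12.65, 12.41 and 12.69 in CCR9+ pDCs and 12.41, 12.58 and 12.58 in precursors. These values overlapped, and the difference was 0.06 (95% interval -0.23 to 0.34, limma adjusted p = 0.750), turning to -0.12 under median scaling. Probe 3 read 9.50, 9.28 and 9.16 in CCR9+ pDCs and 8.25, 8.01 and 8.17 in precursors, a 2.25-fold difference with no overlap (log2 1.17, SE 0.13, limma adjusted p = 0.000849). Probe 2, assigned to the same transcript as probe 3, differed by 0.57 and did not pass (95% interval -0.00 to 1.14, adjusted p = 0.126). The difference of probe 1 minus that of probe 3 was -1.11 (95% interval -1.53 to -0.69), which passed over all same-gene pairs (limma adjusted p = 0.0256). That call was lost in 7 of 14 alternatives, among them leaving out any 1 array except CCR9+ pDC replicate 3 (adjusted p from 0.0712 to 0.117). The probe 3 call held under all 14 alternatives run for it.

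Ctsa showed the widest disagreement between probes. Its product, cathepsin A or protective protein, is a serine carboxypeptidase that also holds the lysosomal enzymes beta-galactosidase and neuraminidase 1 in a stable complex. Probe 2 had non-normalized signals of 3135, 2589 and 3227 on the CCR9+ pDC arrays and 344.1, 345.4 and 387.7 on the precursor arrays. After normalization it read 11.66, 11.31 and 11.86 against 7.60, 7.72 and 7.87, a 14.7-fold difference (log2 3.88, SE 0.16, limma adjusted p = 2.57e-05). This was the largest difference of any member probe.

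The other 4 Ctsa probes did not pass. Probe 1 read 8.18, 7.99 and 7.21 in CCR9+ pDCs and 7.75, 7.62 and 7.71 in precursors. Its groups overlapped, with CCR9+ pDC replicate 3 below all precursor arrays, and the difference was 0.10 (95% interval -0.49 to 0.69, limma adjusted p = 0.799). It was -0.10 under median scaling, and without CCR9+ pDC replicate 3 it was 0.39 and passed (adjusted p = 0.0416). Probe 3, above background on 2 CCR9+ pDC arrays and 1 precursor array, differed by 0.44 (adjusted p = 0.0744), and also passed without that replicate (0.54, adjusted p = 0.0344). Probes 4 and 5 were dim, at 5.92 ± 0.07 and 5.89 ± 0.71 in CCR9+ pDCs and 6.10 ± 0.14 and 5.83 ± 0.16 in precursors (log2, SD, n = 3), and 1 CCR9+ pDC array did not detect probe 5. They differed by -0.18 (95% interval -0.45 to 0.09) and 0.06 (95% interval -0.75 to 0.88).

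Each of the 4 pairs with probe 2 was called, where 3.05% of all same-gene pairs on the array were. These pairs share probe 2, so they are not 4 separate results. Probe 2 was the reference as the brightest by its mean over all 6 arrays, while in precursors its mean was close to that of probe 1 (7.73 and 7.69). The difference of probe 2 exceeded that of the other probes by 3.44 to 4.06 on the log2 scale (limma adjusted p from 0.000511 to 0.00915). Probes 3, 4 and 5 lay near the lowest signals of detected probes (5.45 to 5.64 over the arrays), while probe 1 was brighter than that floor and above background on all 6 arrays. The call of the pair with probe 5 did not survive leaving out a precursor array (adjusted p of 0.0600, 0.0532 and 0.0567 for replicates 1, 2 and 3). Annotation separates probe 2 from probes 4 and 5 but not from probes 1 and 3: probes 1, 2 and 3 are assigned to one RefSeq transcript and probes 4 and 5 to another. In all, 5 of the 10 pairs of the members were called, 4 of Ctsa and 1 of Ctse, and the Ctsc, Ctsh and Ifi30 pairs did not pass.

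By RefSeq gene spans on GRCm38.p6, Ctsa overlaps Pltp, the phospholipid transfer protein gene, and Neurl2, both on the opposite strand. The Pltp probe read 7.46, 7.26 and 7.49 in CCR9+ pDCs and 5.11, 5.24 and 5.69 in precursors, where it was above background on 1 array. It was higher in CCR9+ pDCs, by 2.05 on the log2 scale (SE 0.17, limma adjusted p = 0.000262) and by 0.85 with no background correction, still called. The Neurl2 probe differed by 0.25 (adjusted p = 0.215, not called). These overlapping genes were looked up after the Ctsa values were seen. Where on the transcripts the probes lie was not analysed here, and any part of Pltp in the signal of Ctsa probe 2 was not tested. The Ctsa difference therefore rests on 1 probe of 5.

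**Figure D3:**
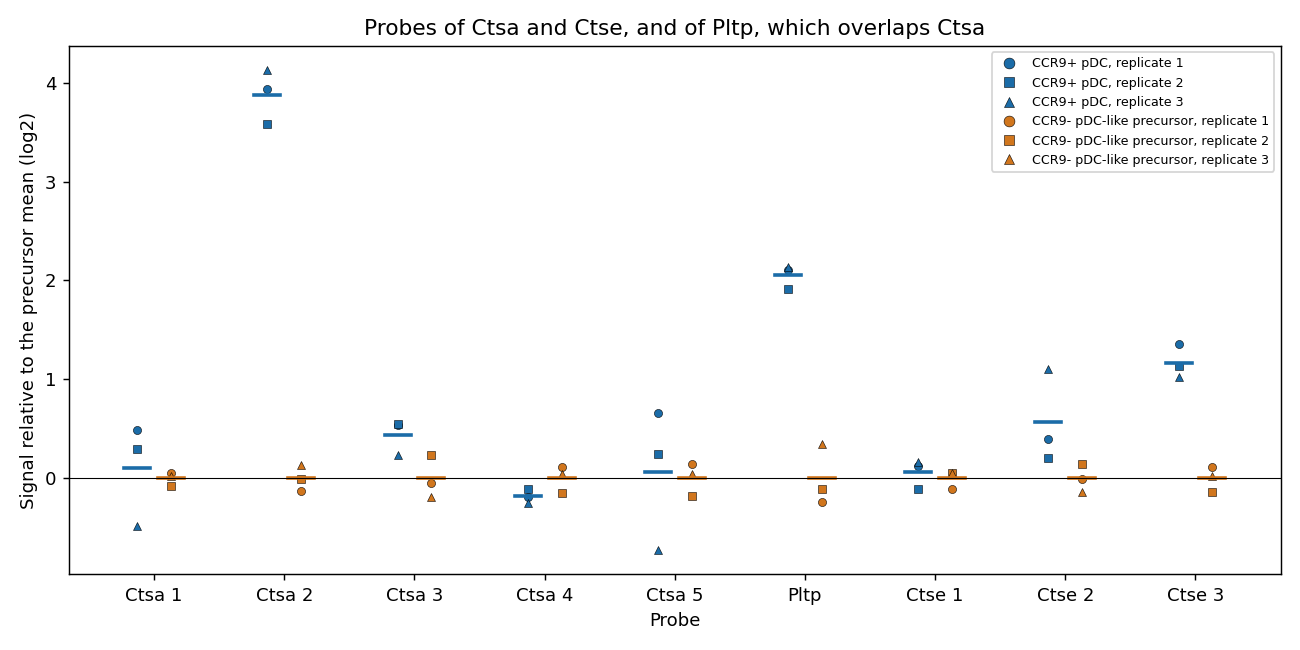
Signal of each Ctsa, Pltp and Ctse probe (x axis) on each array, relative to the precursor mean of that probe (log2, y axis). Blue marks are CCR9+ pDC arrays, orange marks precursor arrays and short lines group means. Ctsa probe 2 (3.88), Pltp (2.05) and Ctse probe 3 (1.17) lie above 0 on all CCR9+ pDC arrays. So do Ctsa probe 3 (0.44) and Ctse probe 2 (0.57), which were not called. CCR9+ pDC replicate 3 (triangles) is the lowest of its group for Ctsa probes 1, 3, 4 and 5.

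Legumain cuts the invariant chain, activates some cathepsins by cutting their propeptides, and contributes to the cleavage of endosomal TLRs. The Lgmn probe read 11.49, 11.40 and 11.27 in CCR9+ pDCs and 10.64, 10.59 and 10.53 in precursors. All CCR9+ pDC arrays lay above all precursor arrays, and the difference was 1.74-fold (log2 0.80, SE 0.10, 95% interval 0.55 to 1.05, limma adjusted p = 0.00174). Under median scaling it was 0.56 and missed the threshold (adjusted p = 0.0579).

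Ifi30, which encodes the interferon-inducible reductase GILT, was the member that was lower in CCR9+ pDCs. Probe 1 read 9.93, 9.64 and 9.78 in CCR9+ pDCs and 10.57, 10.32 and 10.35 in precursors. The groups did not overlap, and the difference was -0.63 (SE 0.13, 95% interval -0.93 to -0.33, limma adjusted p = 0.0108). It remained called under all 15 alternatives (adjusted p from 0.00112 to 0.0448). Probe 2 read 9.72, 8.995 and 9.25 against 10.01, 9.80 and 9.91, and its difference of -0.58 did not pass (95% interval -1.04 to -0.12, adjusted p = 0.0654). CCR9+ pDC replicate 1 was the highest of its group on both probes, and without it probe 2 differed by -0.78 and passed (adjusted p = 0.0123). The difference between the probes was -0.05 (95% interval -0.41 to 0.32).

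By pattern over the 6 arrays, each centred on its own mean, the genes nearest to Ctsa probe 2 among 9552 others were Cd74, Ncald and Scimp. Their root mean square distances were 0.17, 0.18 and 0.19 on the log2 scale, and the differences of Cd74 and Scimp were 3.96 and 4.07. Ncald was above background on no precursor array, so its distance rests on values there that are only bounded. In the background-corrected values it was at least 6.65-fold higher in CCR9+ pDCs. Nearest to Ifi30 probe 1 were S100a11, Unc119b and Mrpl33 at 0.05, 0.06 and 0.06, with differences of -0.64, -0.72 and -0.57.

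Other genes of the pathway were counted through the brightest tested probe of each gene. Over the 9561 genes so counted, 16.2% were higher and 16.5% lower in CCR9+ pDCs (32.7% in either direction), with a median difference of -0.02. Of 6 cathepsins outside the members, 4 were tested. Ctsg, a serine protease of neutrophil granules, was 1.99-fold higher in CCR9+ pDCs (limma adjusted p = 0.00255), while Ctso, Ctsw and Ctsz did not pass. The Ctsz probe, of cathepsin X, differed by 0.29 (adjusted p = 0.117). The list had a median of 0.26.

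Natural inhibitors of cysteine cathepsins moved both ways. Of 13 listed, 4 were tested, of which 1 was higher and 1 was lower, where 16.2% and 16.5% of all genes were. Another 8 were not above background on any array. Cst7, which encodes the cystatin F inhibitor of cathepsin C and other cathepsins, was 2.74-fold lower in CCR9+ pDCs, at 5.74 ± 0.18 against 7.20 ± 0.28 (log2, SD, n = 3, limma adjusted p = 0.00120). With no background correction its difference was -0.61 and with the authors' processed values -0.58, both called. Cstb, the cytosolic cystatin B gene, was 1.45-fold higher (adjusted p = 0.00975, and 0.201 under median scaling). Cst3, the secreted cystatin C gene, had a difference of -0.15, not called (adjusted p = 0.279). Its difference was 0.06 with the authors' processed values.

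Genes that deliver new enzymes to lysosomes were called no more often than genes in general. Of 14 such genes, 2 were higher and 1 was lower in CCR9+ pDCs, where 16.2% and 16.5% of all genes were. Their median difference was -0.02. Sort1, the sortilin gene, was 3.51-fold higher, at 13.40 ± 0.05 against 11.58 ± 0.09 (log2, SD, n = 3, limma adjusted p = 5.07e-05). Igf2r, the large mannose 6-phosphate receptor gene, was above background on every CCR9+ pDC array and on no precursor array. It was at least 2.11-fold higher in the background-corrected values (adjusted p = 0.00257). With no background correction its log2 difference was 0.55, still called, so the size depended on that step. The retromer gene Vps35 was 1.25-fold lower (adjusted p = 0.0394), a call lost in 9 of 15 alternatives. M6pr, the small mannose 6-phosphate receptor gene, differed by 0.44 (adjusted p = 0.0598). The bound for Igf2r sets the CCR9+ pDC mean against, on each precursor array, the higher of the probe's own value and the lowest signal of a detected probe.

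Both partners of cathepsin A in its complex were measured. Neu1 was 2.50-fold higher in CCR9+ pDCs (log2 1.32, limma adjusted p = 0.000217), and Glb1, the beta-galactosidase gene, had a difference of -0.19, not called (adjusted p = 0.209). All 3 tested substrates that cathepsin C activates in granules, Elane, Prtn3 and Ctsg, were higher in CCR9+ pDCs, where 16.2% of all genes were. Their median was 0.84. They are also granulocyte markers, of which 10 of 10 tested were higher, and the part of granulocytes in these values was not tested. The Elane and Prtn3 calls ended under median scaling (adjusted p = 0.0521 and 0.307), and that of Prtn3 also without CCR9+ pDC replicate 1 or 2 or precursor replicate 2 (0.0503, 0.0519 and 0.0585).

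Class II genes, whose products these proteases serve, were mostly higher in the same arrays. In CCR9+ pDCs 9 of 10 were higher and H2-DMa was lower, where 16.2% and 16.5% of all genes were. Their median was 2.40. Some of the 9 calls lay close to the threshold, with limma adjusted p up to 0.0416. The differences were 4.80 for H2-Eb1, 4.64 for H2-Ab1, 3.96 for Cd74, the invariant chain gene, 3.68 for H2-Aa and -0.49 for H2-DMa, which encodes a chain of the peptide editor. Tlr7 was 3.73-fold higher (limma adjusted p = 6.25e-05) and Unc93b1, the chaperone of endosomal TLRs, 1.32-fold (adjusted p = 0.0344, lost in 8 of 15 alternatives). The Tlr9 probe had a difference of 0.19, not called (adjusted p = 0.507). It was dim, at means of 6.04 in CCR9+ pDCs and 5.85 in precursors, and above background on 2 precursor arrays. These values lay near the lowest signals of detected probes (5.45 to 5.64), so Tlr9 was barely measured.

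Members' promoters were searched for the letters of known response elements. TFEB and its relatives activate many lysosomal genes through the CLEAR element, in which the core CACGTG is flanked by GT before it and AC after it. Of these factors only Tfe3 had a tested probe, which differed by 0.72 and did not pass (limma adjusted p = 0.0573), and Tfeb, Tfec and Mitf were not above background on any array. RefSeq windows on GRCm38.p6, from 250 bases before to 50 after an annotated start, matched 7 of the 10 members by symbol, with 9 windows. CACGTG, which reads the same on both strands, occurred in 5 of the 9 windows and in 7.15% of the 32851 windows of all genes. The 5 were windows of Ctsa, Ctsd, Ctsl, Lgmn and Ifi30. Ctsa and Lgmn each have 2 windows, and the other window of each held no match. The whole element was in none of the 9 and in 0.326% of all. The core of the interferon-stimulated response element, GAAA repeated after any 2 bases and searched on both strands, was in the Ctss window and in 3.44% of all. The whole CLEAR element contains CACGTG, and the GAAA repeat overlapped no CACGTG in the windows of the members. The windows below are shown because their genes were measured and they hold a match, set in capitals, and Ifi30 differs in direction from the others.
Ctsa, chr2:164833523-164833822, plus strand: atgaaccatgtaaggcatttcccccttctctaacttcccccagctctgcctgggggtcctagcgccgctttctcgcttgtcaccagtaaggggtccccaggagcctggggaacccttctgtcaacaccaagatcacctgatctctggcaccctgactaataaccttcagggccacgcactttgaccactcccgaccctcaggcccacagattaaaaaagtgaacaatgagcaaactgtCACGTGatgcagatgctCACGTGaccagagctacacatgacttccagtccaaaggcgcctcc
Ctsl, chr13:64370471-64370770, minus strand: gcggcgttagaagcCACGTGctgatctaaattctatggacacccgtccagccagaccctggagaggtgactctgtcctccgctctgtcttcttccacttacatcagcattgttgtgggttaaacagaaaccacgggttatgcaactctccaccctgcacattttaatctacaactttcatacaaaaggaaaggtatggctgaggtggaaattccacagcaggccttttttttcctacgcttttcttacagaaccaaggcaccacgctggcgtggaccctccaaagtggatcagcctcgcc
Lgmn, chr12:102439043-102439342, minus strand: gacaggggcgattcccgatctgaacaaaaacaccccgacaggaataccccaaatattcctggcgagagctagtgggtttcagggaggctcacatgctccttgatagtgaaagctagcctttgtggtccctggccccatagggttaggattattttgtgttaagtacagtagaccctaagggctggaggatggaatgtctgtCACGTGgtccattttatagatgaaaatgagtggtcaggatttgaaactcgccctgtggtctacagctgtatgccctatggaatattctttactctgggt
Ifi30, chr8:70766614-70766913, minus strand: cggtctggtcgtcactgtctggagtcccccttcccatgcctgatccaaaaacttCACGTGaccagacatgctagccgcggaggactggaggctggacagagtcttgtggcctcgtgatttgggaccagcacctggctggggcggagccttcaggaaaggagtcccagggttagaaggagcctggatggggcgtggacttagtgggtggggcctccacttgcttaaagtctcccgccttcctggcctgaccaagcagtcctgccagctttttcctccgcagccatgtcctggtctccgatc
Ctss, chr3:95526536-95526835, plus strand: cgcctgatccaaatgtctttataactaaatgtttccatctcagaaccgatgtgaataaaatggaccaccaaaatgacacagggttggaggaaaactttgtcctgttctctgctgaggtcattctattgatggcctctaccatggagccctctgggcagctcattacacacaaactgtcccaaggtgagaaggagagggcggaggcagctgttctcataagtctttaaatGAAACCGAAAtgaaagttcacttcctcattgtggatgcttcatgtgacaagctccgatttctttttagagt

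In the Ctsa window shown, a first CACGTG begins 12 bases before the annotated start and a second at base 6 after it. The Lgmn match begins 49 bases before the start, and those of Ifi30 and Ctsl begin 196 and 236 bases before it. In the Ctss window the GAAA repeat begins 21 bases before the start. The Ctsc window held neither motif. Whether a match bears on a difference between the groups was not tested. A match is a string of letters only, and no binding was measured.

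Granulocyte markers (median 0.97) and basophil and mast cell markers (7 of 7 higher, median 1.95) also separated the groups. Their summed signals were 101653 to 115789 against 51021 to 59861, and 5618 to 7469 against 1897 to 2494. Over the alternatives 7 to 10 of the granulocyte markers and 5 to 7 of the basophil and mast cell markers were called higher. Lcn2 (1.43), Ngp (1.41) and Cebpe (1.39) differed most among granulocyte markers, and Gata2 (2.50), Prss34 (2.38) and Fcer1a (2.30) among basophil and mast cell markers. Of the conventional dendritic cell markers 4 of 8 were higher and 2 lower in CCR9+ pDCs, and of the pDC markers 4 of 9 were higher and 1 lower. Zbtb46, above background on no CCR9+ pDC array, was at least 3.88-fold lower there in the background-corrected values. Its non-normalized signals were 120 to 140 in CCR9+ pDCs and 300 to 338 in precursors, and the bound does not cover the choice of correction. Itgax differed by -1.27 and Cd209a by 1.19, while Klk1 (4.59), Lag3 (2.58) and Ptprs (0.80) led the pDC list. B-lineage markers were higher for 2 of 6 (Pou2af1 1.60, Cd79b 1.02), T and NK cell markers for 2 of 3 (Nkg7 1.11, Cd3e 0.62) and erythroid markers for 1 of 4 (Alas2 0.80), with none lower. Over all genes 16.2% were higher and 16.5% lower. These lists hold few tested genes and were chosen with earlier results of these data known. Markers not above background on any array were Ccr9, Klrb1c, Ncr1, Cd8a, Xcr1 and Flt3.

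**Figure D4:**
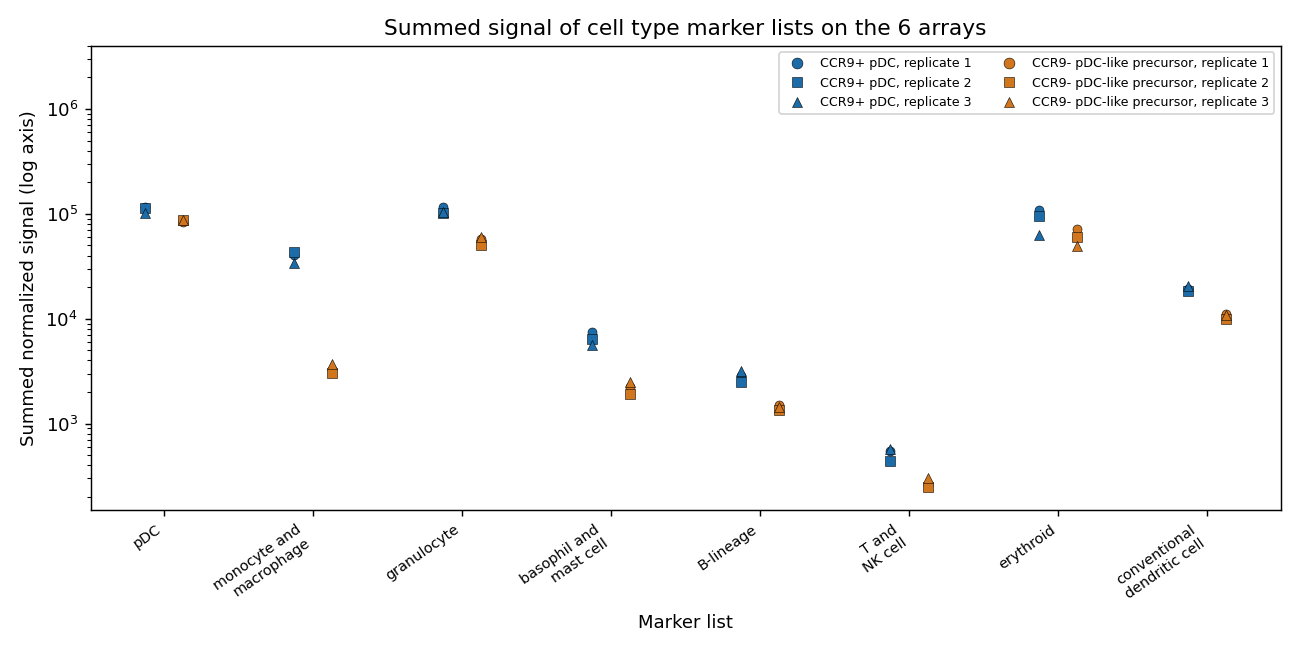
Summed normalized signal (log y axis) of 8 lists of cell type markers (x axis) on each array, with CCR9+ pDC arrays in blue and precursor arrays in orange. The monocyte and macrophage list differs most, at 33896 to 43018 against 3043 to 3665, while the erythroid values of the groups overlap.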

How the data were processed

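Bead intensities and detection p-values of the 6 arrays were used as deposited in the authors' non-normalized data. Per the submitters' processing notes BeadStudio and lumi were used, with no version named. The authors' deposited processed values served only as an alternative, after a log2 transform, and their normalization is not stated. Intensities were corrected by normexp with negative control moments inferred from the detection p-values (offset 16), quantile normalized and log2 transformed with limma 3.58.1 in R 4.3.3. Detection at p below 0.05 was required on 3 or more of the 6 arrays, and the probes kept entered lmFit and eBayes, with Benjamini-Hochberg adjustment over all of them and a call at an adjusted p below 0.05. The series design states 3 independent isolations a group, and the number of arrays limits the precision.

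The unit was the probe. Among the probes 34885 had 1 gene symbol, 18 several and 10378 none listed, and 34807 matched RefSeq through Entrez identifiers. For pairs, the brightest probe of a gene minus each other probe was fitted over all pairs. Probes are numbered within a gene in order of probe identifier. Each gene outside the members was read by its brightest tested probe.

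The members and lists were chosen with earlier results of these data known. Named were all members, in each related list up to 4 called genes with the largest differences plus Cst3, Ctsz, Cd74 and Tfeb, 3 called genes of each marker list, and the 3 genes nearest in pattern to the members with the highest and lowest difference. Other named genes (Ctso, Ctsw, M6pr, Glb1, Tlr9, Tfe3, Tfec, Mitf, H2-DMa, Pltp, Neurl2 and markers not above background) were picked after their values were seen. Alternatives were median scaling, cyclic loess, no background correction, the processed values, no filter, a stricter filter, an intensity trend with a robust prior, the replicate number as a block, 1 probe per gene and each array left out. The scripts were tested on simulated data.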

Additional observations from a re-analysis of the deposited data

How the results depend on the processing

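With 3 arrays a group, differences near the size of the Ctsb one crossed the threshold with the settings. Calls over the array numbered 4940, and 3330 to 5417 with 1 array left out. Member probes called higher numbered 10, and 9 to 12 with 1 array left out. Median scaling gave 6, ending the calls of both Ctsh probes, Ctss and Lgmn. The fit with 1 probe per gene gave 7 of 9, and the other alternatives gave 10 or 11. Of all probes, 13.7% were called higher in the main fit, and 9.66% to 14.6% with 1 array left out. The share was 8.2% under median scaling, 17.6% with 1 probe per gene and 4.61% to 17.6% under the other alternatives. Member probes called lower numbered 1, and 2 under median scaling, no background correction, the processed values, the intensity trend with a robust prior and the replicate block (1 to 2 with 1 array left out), the second being Ifi30 probe 2. Same-gene pairs called numbered 144, then 488 with no background correction, 490 with the processed values, 1166 with no filter on dim probes, 43 with the replicate block and 29 to 183 with 1 array left out. The cause was not tested. For the pairing, deviations of same-numbered arrays correlated at 0.333, 0.0197 and 0.235, and those of differently numbered arrays at -0.295 to 0.0886. CCR9+ pDC replicates 1 and 3 correlated best with the precursor array of their own number, and replicate 2 with precursor replicate 1 (0.0886). The labels state no pairing, so the main fit used none, and these values do not settle whether the arrays are paired. The replicate block gave 4670 calls over the array, and 11 member probes higher and 2 lower.

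Reversals touched only differences that had not passed. Under median scaling Ctsa probe 1 was -0.10 and Ctse probe 1 was -0.12. The Ctsc difference of probe 2 minus probe 3 was 0.0286 under median scaling, 0.00868 under cyclic loess, 0.11 with no background correction and 0.18 with the processed values. With the processed values Ctse probe 1 minus probe 2 was 0.0132 and Cst3 was 0.0562. With 1 array left out, Ctsa probe 1 ran from -0.0932 to 0.39 and Ctsa probe 5 from -0.24 to 0.46. Over the same fits the Ctsc pairs ran from -0.0716 to 0.0876 (probe 3) and -0.0217 to 0.0684 (probe 1), the Ctsh pair from -0.14 to 0.0431 and the Ifi30 pair from -0.14 to 0.0778.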
